A study of Homo sapiens with 6 samples.

Results

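The DEAD and DEAH box helicases were taken from the deposited expression table as the protein-coding genes whose symbol is DDX or DHX followed by a number and, in a few cases, A, B or X. This rule found 53 of 58302 genes, of which 37 have DDX and 16 have DHX symbols. A mean of at least 1 FPKM (fragments counted on a gene, scaled by transcript length and library depth) over the 4 RIP and Input libraries was reached by 47 of the 53, and these 47 carry the comparisons below. DDX4, DDX25, DDX43, DDX47, DDX53 and DHX58 did not reach it.

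RIP-seq with an antibody against the acetyltransferase NAT10 and acRIP-seq with an antibody against N4-acetylcytidine (ac4C) had been run in SW480 and DLD-1, a pair of epithelial cell lines from colorectal tumours. Both lines are given as wild type and received no treatment, although the paper states that both have mutant p53. The series holds 6 libraries, that is Input, NAT10 RIP and acRIP in each line, with 1 library per group. Without replicates each difference compares libraries and not conditions, and no p-value was computed.

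DEAD and DEAH box proteins are ATP-dependent enzymes that open RNA duplexes or strip proteins from RNA, and their names come from the amino acids of a conserved ATPase motif. They serve nearly every step in the life of an RNA, from transcription and splicing through export and translation to decay, and many are needed to build ribosomes. NAT10 is the enzyme that places ac4C on ribosomal, transfer and messenger RNA, and it is itself a nucleolar protein that works in ribosome assembly.

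The libraries did not pair by their labels. On the log2(FPKM + 1) scale and over the 47 helicase genes, RIP and Input of SW480 had r = 0.861, whereas RIP of SW480 and Input of DLD-1 had r = 0.909. RIP of DLD-1 gave r = 0.825 with Input of DLD-1 and r = 0.898 with Input of SW480. Across the 11605 protein-coding genes with a mean FPKM of at least 1, the same-label correlations were 0.755 and 0.724 and the other-label correlations 0.895 and 0.912. These r values are across genes, which are not independent replicates. For this reason the main measure was the mean of log2(RIP FPKM + 1) over both lines minus the mean of log2(Input FPKM + 1) over both lines, which does not depend on which Input belongs to which RIP. Counts of members past 2-fold by label are given with the counts over the other Input. The reads recovered from the FPKM steps summed to 11936543 and 12851961 in the Inputs and to 22636176 and 26980967 in the RIP libraries. They give counting errors, printed as ±, which hold no other source of spread, since reads copied by PCR are not separate molecules. Of the 7 epithelial markers listed for the check, 6 were above 7 FPKM in both Inputs, VIL1 lay at 1.13 and 0.261 FPKM, and 5 markers of blood, stromal, endothelial and liver cells stayed at or below 0.244 FPKM.

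DDX5, DDX17, DDX21, DDX3X and DHX15 were the most abundant members in the Inputs. Together these 5 made up 43.6% of the summed FPKM of all 53 members in the Input labelled SW480 and 35.1% in the Input labelled DLD-1. In bulk RNA of this kind, a level shared by all cells and a higher level in some of them cannot be told apart.

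DDX5, a co-regulator of transcription and splicing, had 195 and 100 FPKM in the Inputs labelled SW480 and DLD-1 and 90.8 and 126 FPKM in the RIP libraries of the same labels. The Input was the higher library under the SW480 label and the RIP library under the DLD-1 label. DDX17, its close paralog, had 127 and 102 FPKM in the Inputs against 78.9 and 87.9 FPKM in the RIP libraries, so both RIP libraries lay below both Inputs. DDX21, a nucleolar helicase of ribosome synthesis, had 76.5 and 53.2 FPKM in the Inputs and 65.0 and 84.3 FPKM in the RIP libraries. DDX3X, which acts in translation initiation, had 55.1 and 60.4 FPKM in the Inputs and 79.8 and 52.2 FPKM in the RIP libraries. DHX15, which takes the spliceosome apart after splicing, had 64.2 and 47.2 FPKM in the Inputs and 45.8 and 52.0 FPKM in the RIP libraries. For DDX21, DDX3X and DHX15 the RIP and Input values overlapped.

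At the low end, DDX53 was listed at 0 in all 4 libraries. DDX4, DDX25 and DDX43, which like DDX53 are known from germ cells, stayed at or below 0.501 FPKM in each library. DHX58, a regulator of RNA sensing, had 1.23 FPKM in the RIP library labelled SW480 and 0.314 to 0.566 FPKM in the other 3. Across the 47 members that passed, the median was 16.8 and 15.5 FPKM in the Inputs and 15.98 and 13.4 FPKM in the RIP libraries, above the medians of 8.56 to 10.4 FPKM over the protein-coding genes.

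**Figure D1:**
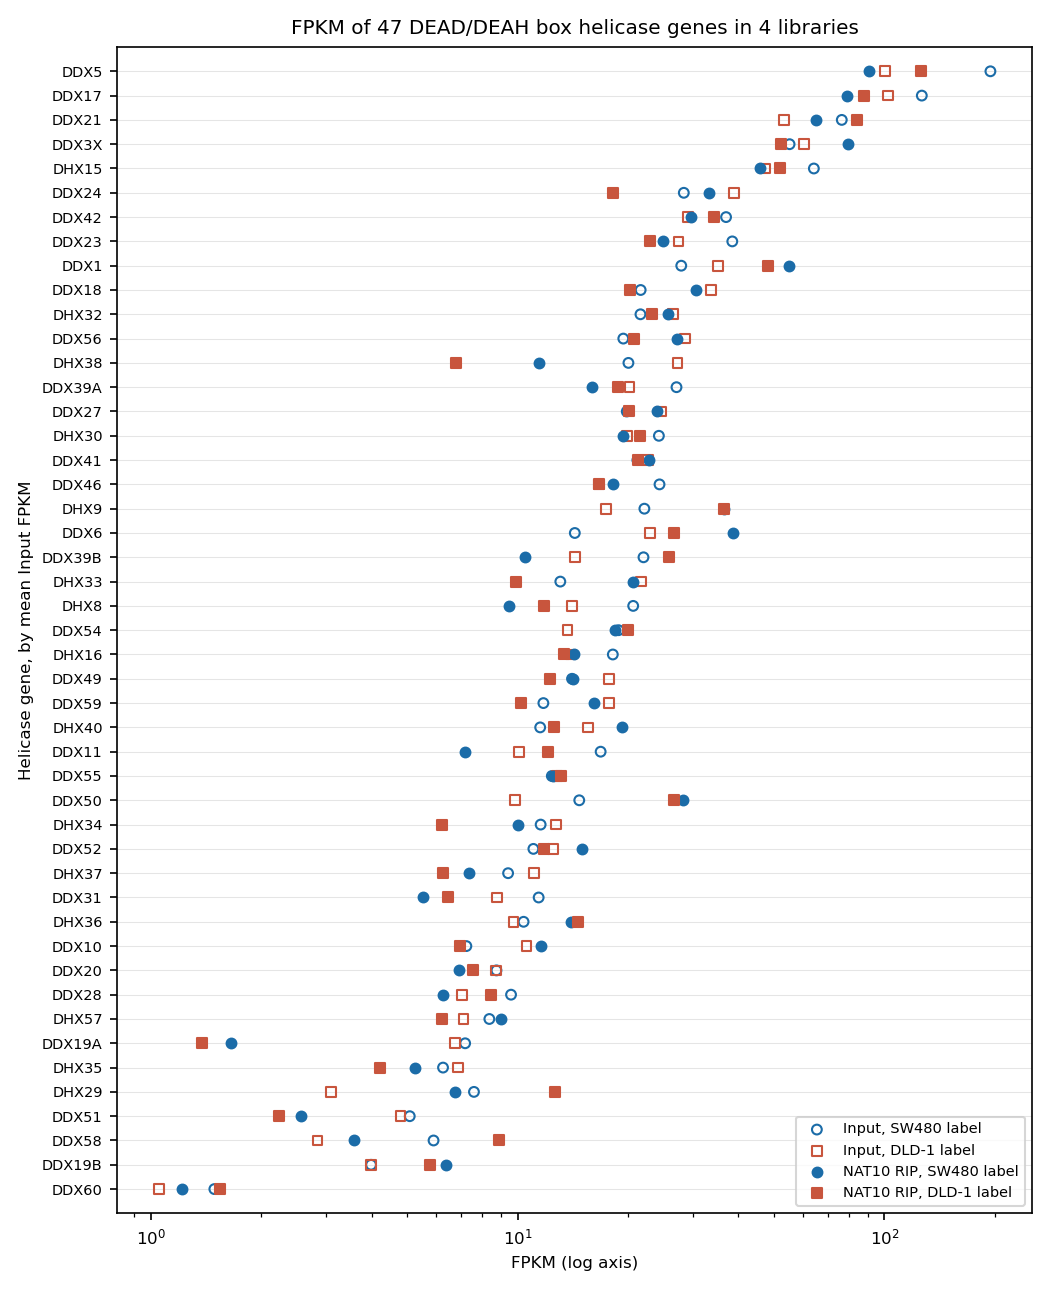
FPKM on a log axis of the 47 helicase genes with a mean of at least 1 FPKM, ordered by their mean Input. Open symbols are the Input libraries and filled symbols the NAT10 RIP libraries, 1 library each. DDX5 and DDX17 stand at the top at 78.9 to 195 FPKM, and DDX60 at the bottom at 1.05 to 1.54 FPKM.

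The first comparison asked whether helicase mRNAs were recovered with NAT10 above their level in total RNA. The median mean RIP/Input of the 47 members was -0.10 on the log2 scale, against 0.11 over the 11605 protein-coding genes. Members above 0 numbered 19 and members below 0 numbered 28, or 59.6% below, where 42.5% of the protein-coding genes were below. A second pair of Inputs stands in the acRIP table, and when these were brought to the median of the first pair and used in its place, the value for the members was -0.04. Relative to the protein-coding median with the same Inputs, the member at this median (DDX58) was at -0.19. With the first Inputs the members' median was at -0.22 on that relative scale. A RIP level at least 2-fold above Input was seen in 1 of 47 members, DDX50, where the background was 9.5% of the protein-coding genes. A level at least 2-fold below Input was seen in 2 of 47, DDX19A and DHX38, where the background was 2.75%.

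DDX50, a nucleolar paralog of DDX21 encoded next to it on chromosome 10, had 28.3 and 26.6 FPKM in RIP under the SW480 and DLD-1 labels and 14.7 and 9.84 FPKM in the Inputs. Both RIP libraries lay above both Inputs, and the mean difference was 1.12 ± 0.05 on the log2 scale. It shrank to 0.36 with the Inputs of the acRIP table, in which DDX50 had 17.5 and 11.6 before scaling. DHX9, the RNA helicase A that links transcription to RNA processing, had 36.6 FPKM in each of the RIP libraries against 22.2 and 17.4 FPKM in the Inputs. Its mean difference was 0.86 ± 0.03, and it was also 0.86 with the Inputs of the acRIP table. DDX6, a factor of decapping and of processing bodies, had 38.7 and 26.6 FPKM in the RIP libraries and 14.3 and 23.0 FPKM in the Inputs. Its mean difference of 0.79 ± 0.03 became 1.25 with the other Inputs, which made DDX6 the 1 member at least 2-fold above Input there (background 10.3%), while DDX19A and DHX38 were again the 2 below (background 3.04%). DDX1, part of the tRNA ligase complex, had 55.1 and 48.2 FPKM in the RIP libraries against 27.9 and 35.2 FPKM in the Inputs, a mean difference of 0.70 ± 0.03, and 0.71 with the other Inputs.

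DHX29 and DDX19B completed the 6 members with the highest mean RIP/Input. DHX29, which helps the small ribosomal subunit to scan structured leaders, had 6.73 FPKM in the RIP library labelled SW480 and 12.6 FPKM in that labelled DLD-1. Its Inputs had 7.596 and 3.09 FPKM in the same order, so RIP and Input overlapped. The mean difference of 0.79 ± 0.06 fell to 0.18 with the Inputs of the acRIP table. DDX19B, an mRNA export factor at the nuclear pore, had 6.38 and 5.76 FPKM in the RIP libraries and 3.98 FPKM in each Input, a mean difference of 0.50 ± 0.07 that was 0.16 with the other Inputs. DHX36, which unwinds G-quadruplexes, had 13.9 and 14.6 FPKM in the RIP libraries against 10.4 and 9.74 FPKM in the Inputs, a mean difference of 0.47 ± 0.04 that was 0.24 with the other Inputs.

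The lowest member was DDX19A, the near-identical neighbour of DDX19B on chromosome 16 (70346903 to 70373383, GRCh38.p14, beside 70289767 to 70335305 for DDX19B). It had 1.65 and 1.38 FPKM in the RIP libraries and 7.19 and 6.75 FPKM in the Inputs. Both RIP libraries lay below both Inputs, the mean difference was -1.66 ± 0.06, and it was -1.74 with the Inputs of the acRIP table. The pair thus went opposite ways, but reads that fit both copies could have been counted to either, and a further gene entry at the position of some DDX19A peaks, AC012184.2, was listed at 0 in all 4 libraries. DHX38, the spliceosomal helicase PRP16, had 11.4 and 6.80 FPKM in the RIP libraries against 20.04 and 27.3 FPKM in the Inputs. Its mean difference was -1.31 ± 0.04, and it was -1.16 with the other Inputs.

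DDX51, DDX31, DHX8 and DHX34 followed with mean differences of -0.80 ± 0.06, -0.66 ± 0.05, -0.65 ± 0.03 and -0.56 ± 0.05. DDX51 and DDX31 act in ribosome assembly, DHX8 releases mRNA from the spliceosome, and DHX34 takes part in nonsense-mediated decay. DHX8 had 9.45 and 11.8 FPKM in the RIP libraries against 20.7 and 14.1 FPKM in the Inputs, and in all 4 genes both RIP libraries lay below both Inputs. With the Inputs of the acRIP table these 4 values ranged from -0.87 to -0.40.

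Members whose 2 RIP libraries both lay above both Inputs were DDX1, DDX6, DDX19B, DDX50, DHX9 and DHX36, that is 6 of 47 or 12.8%, against 28.8% of the protein-coding genes. Members with both RIP libraries below both Inputs numbered 12, or 25.5%, against 16.9%. These were DDX17, DDX19A, DDX20, DDX23, DDX31, DDX39A, DDX51, DHX8, DHX34, DHX35, DHX37 and DHX38. Of these 12, DDX23 and DDX39A turned to 0.20 and 0.18 in the mean with the Inputs of the acRIP table. The sign of the mean difference was the same with the Inputs of either table in 32 of the 47 members and differed in 15, and 77.1% of the protein-coding genes kept their sign. DDX11 changed most among the named genes, from -0.44 ± 0.04 to 0.53, and DHX15 went from -0.17 ± 0.03 to 0.73.

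**Figure D2:**
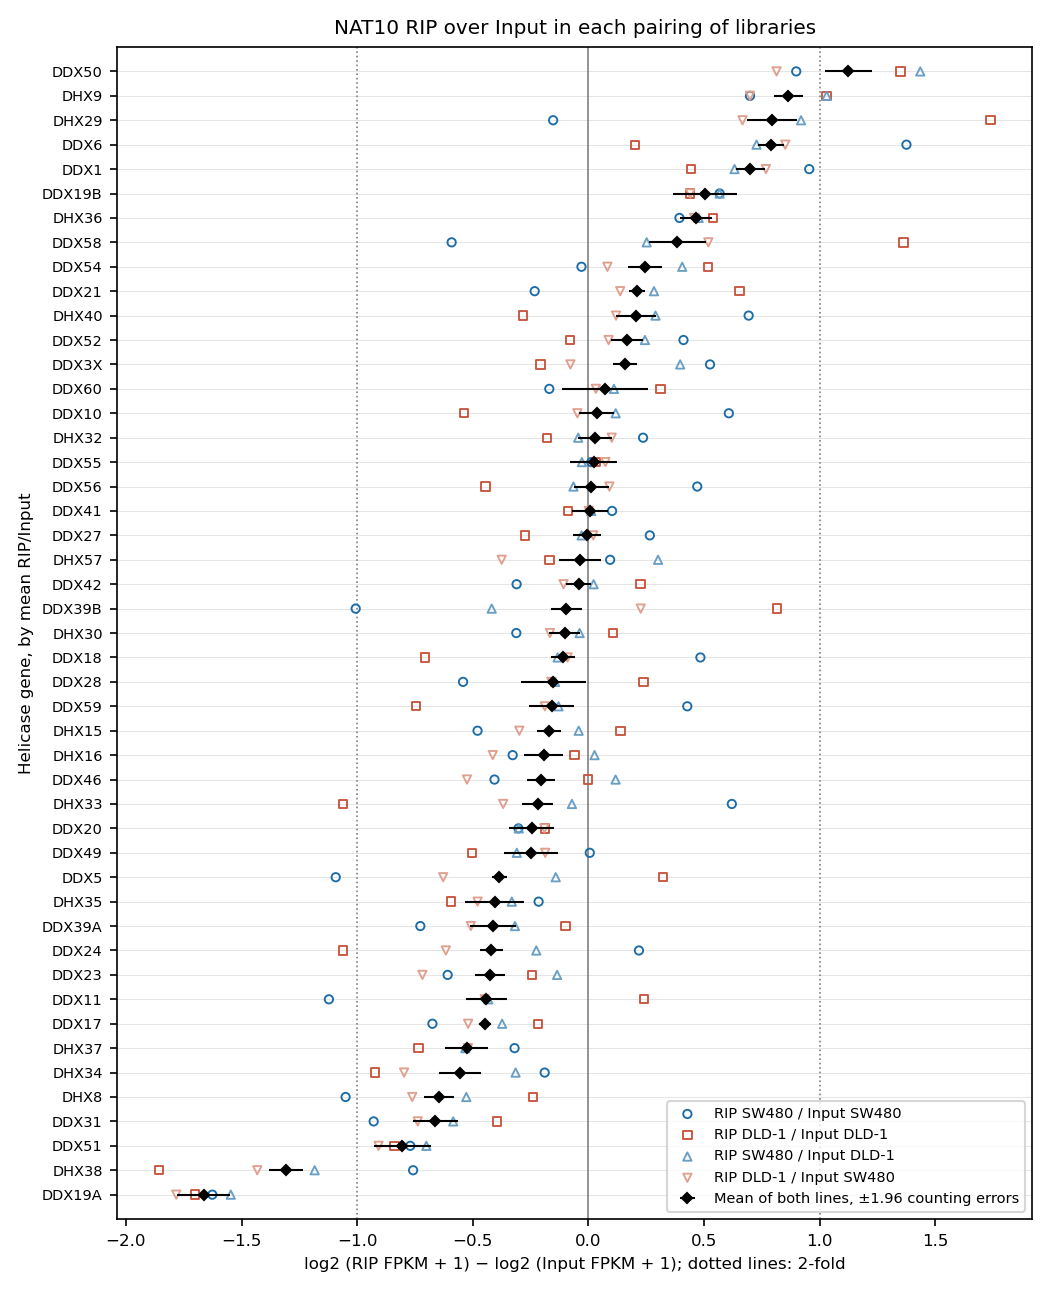
Difference of log2(FPKM + 1) between RIP and Input for the 47 helicase genes, ordered by the mean of both lines (black diamonds, bars of 95% counting intervals). Open symbols are the 4 pairings of 1 RIP with 1 Input library, and dotted lines mark 2-fold. DDX50 has the highest mean (1.12) and DDX19A the lowest (-1.66), and the open circles and squares of many genes lie on opposite sides of 0.

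Grouped by role, 8 of the 9 spliceosomal helicases were below 0, with a median mean RIP/Input of -0.20. Of the same 9, 5 were below 0 with the Inputs of the acRIP table, and DDX23, DDX41, DDX42 and DHX15 were above at 0.20 to 0.73. DDX41 was at 0.01 ± 0.04, and DDX46, which acts early in branch site recognition, was at -0.20 ± 0.03, with 18.1 and 16.6 FPKM in the RIP libraries and 24.4 and 16.6 FPKM in the Inputs. Of the 14 ribosome biogenesis members that passed, 8 were below and 6 above 0, with a median of -0.06 and a range from -0.80 to 0.24. DDX50 (1.12), the nucleolar paralog of DDX21, is not among them. It was 1 of 5 members placed in no group, with DDX59, DHX32, DHX40 and DHX57. The 5 members of translation and mRNA turnover had a median of 0.47, with 4 above 0 and DHX34 below. The 4 mRNA export members ranged from -1.66 to 0.50, and DDX39A (-0.41 ± 0.05) and DDX39B (-0.10 ± 0.03), which load export factors on mRNA, lay between and turned to 0.18 and 0.06 with the Inputs of the acRIP table. The 5 co-regulators of transcription and RNA processing ranged from -0.45 to 0.86. Relative to the median of all protein-coding genes, the group medians were -0.32 for the spliceosome, -0.17 for ribosome biogenesis and 0.35 for translation and turnover. With the Inputs of the acRIP table they were -0.34, -0.54 and 0.03 on the same relative scale, so the median of the translation group moved close to 0.

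Of 13 related RNA helicases outside the symbol rule, 12 passed the floor. Their median mean RIP/Input was 0.21 with a range from -0.89 (SNRNP200, the spliceosomal Brr2) to 0.95 (YTHDC2), and 7 were above and 5 below 0.

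By label, the count past 2-fold changed with the Input chosen. Under the SW480 label, 1 of 47 members (DDX6) had RIP at least 2-fold above Input, where the background was 22%, and 5 were at least 2-fold below, where it was 9.53%. The 5 were DDX5, DDX11, DDX19A, DDX39B and DHX8. Again 5 members were below with the Inputs of the acRIP table (background 9.56%), but DDX28, DDX31 and DDX58 stood in place of DDX5 (-0.70), DDX11 (0.03) and DDX39B (-0.97). Over the Input of the other label, 2 members were above (DDX50 and DHX9, background 10.9%) and 2 below (DDX19A and DHX38, background 3.58%). Under the DLD-1 label, 4 members were above (DDX50, DDX58, DHX9 and DHX29, background 18%) and 4 below (DDX19A, DDX24, DHX33 and DHX38, background 16.3%). There were 7 above with the Inputs of the acRIP table (background 18.9%), with DDX11, DDX39B, DHX15 and DHX30 added and DDX50 lost, and 5 were below (background 15.7%), with DDX27 added. Over the Input of the other label no member was above (background 10.7%) and 2 were below (DDX19A and DHX38, background 3.86%). DDX19A was below in each of the 4 pairings.

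The second comparison set the 2 lines against each other in Input, that is in total RNA. The median difference, SW480 label minus DLD-1 label, was 0.08 on the log2 scale over the members and -0.06 over the protein-coding genes. DHX29 was the 1 member of 47 at least 2-fold higher in the Input labelled SW480, where the background was 8.14%, and no member was at least 2-fold lower, where it was 13.8%. The members ranged from -0.69 to 1.07.

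DHX29 differed by 1.07 ± 0.10, from the Input values given above, and DDX5 by 0.95 ± 0.03. DDX58, which encodes the RNA sensor RIG-I, had 5.89 and 2.84 FPKM in the Inputs labelled SW480 and DLD-1, a difference of 0.84 ± 0.10. DHX33, a helicase of rRNA transcription, had 13.1 and 21.7 FPKM, a difference of -0.69 ± 0.05, and DDX6 differed by -0.65 ± 0.05. DDX18, a nucleolar helicase, had 21.6 and 33.7 FPKM, a difference of -0.62 ± 0.04. The second Input pair, in the acRIP table, gave the same sign for 44 of the 47 members and the opposite sign for DHX32, DHX34 and DHX35, and 86.2% of the protein-coding genes kept their sign. Whether the Inputs of the 2 tables are separate sequencing runs was not stated.

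In the RIP libraries the same subtraction ran the other way. On the log2 scale the RIP difference was -0.46 for DDX5, -0.82 for DHX29 and -1.11 for DDX58, whereas it was 0.99 for DHX33, 0.57 for DDX18 and 0.52 for DDX6. DDX39B had 22.03 and 14.3 FPKM in the Inputs and 10.5 and 25.9 FPKM in the RIP libraries, differences of 0.59 and -1.23. Input and RIP differences had opposite signs in 38 of 47 members, or 80.9%, and in 79.6% of the protein-coding genes. Their correlation across the members was r = -0.840 (rho = -0.870) and across the protein-coding genes r = -0.885. The Input pair and the RIP pair share no library. Whether labels were exchanged on a pair of libraries was not tested.

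**Figure D3:**
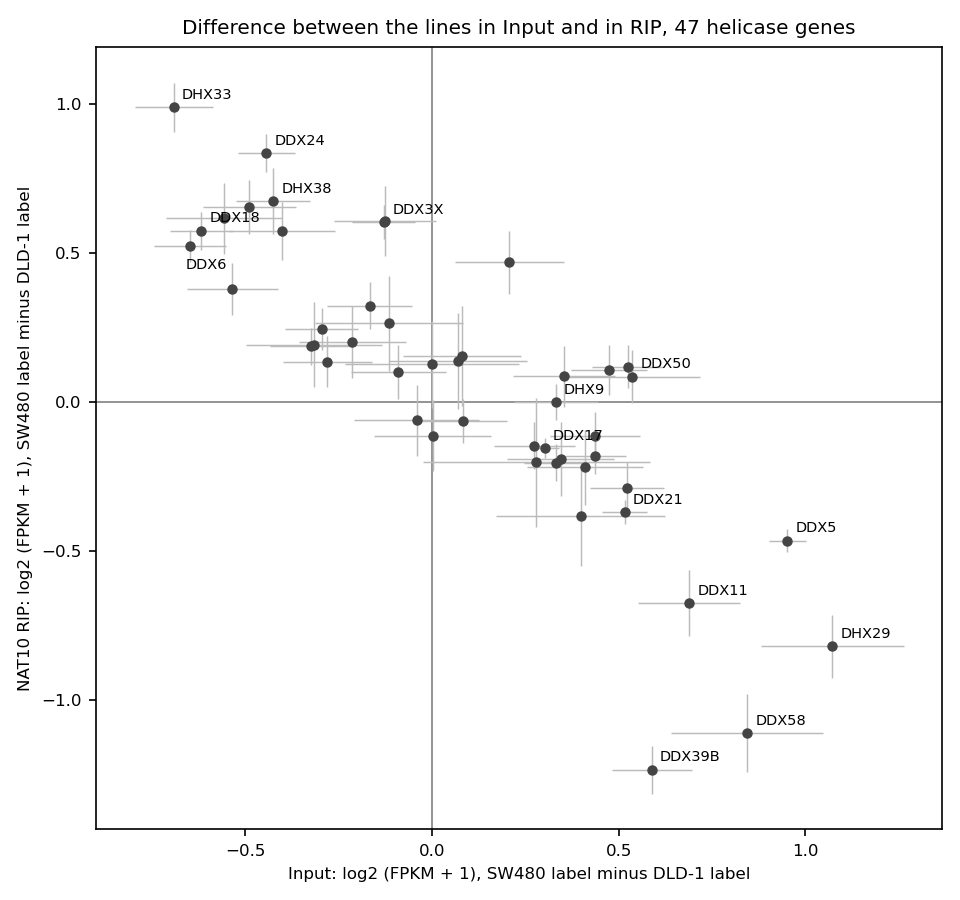
Difference between the lines, SW480 label minus DLD-1 label, in log2(FPKM + 1), with Input on the x axis and NAT10 RIP on the y axis, for the 47 helicase genes. Bars are 95% counting intervals. Most points (38) lie in the quadrants of opposite sign, from DHX33 (-0.69 and 0.99) to DHX29 (1.07 and -0.82).

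The last comparison was of ac4C peaks, regions enriched in the acRIP over the Input library of a line as called by the authors. The line of a peak is that of its list. Whether the line labels of the acRIP and Input libraries hold was not tested. A fold here is the enrichment the lists give for a peak, acRIP against Input. Some folds recur with the same p-value on different genes, such as 12.6 on DDX11, DDX28 and DDX31 in DLD-1. The reads behind each fold were not examined, so folds are not read here as amounts of ac4C. The lists place 54 peaks on 31 members in SW480 and 127 peaks on 40 members in DLD-1, of which 2 and 4 had a false discovery rate of 0.05 or more. Among the 47 members that passed the floor, 31 had a peak in SW480 (66.0%, background 47.7%), 39 in DLD-1 (83.0%, background 52.6%) and 30 in both (63.8%, background 37.2%). The members' median FPKM was above that of the protein-coding genes. At a mean of at least 10 FPKM, 27 of 34 members had a peak in SW480 and 30 of 34 in DLD-1 (79.4% and 88.2%), against 64.3% and 71.7% of the protein-coding genes at that level. The part of the level in these shares was not tested, and the depth of the acRIP libraries is unknown.

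DHX40 had a peak in SW480 only, and DDX10, DDX19B, DDX28, DDX31, DDX47, DDX50, DDX55, DHX33, DHX36 and DHX37 had peaks in DLD-1 only. No peak in either line was listed for 7 members above the floor. These were DDX17, DDX58, DDX59, DDX60, DHX8, DHX35 and DHX57. DDX17 was the exception in level, at 102 to 127 FPKM in the Inputs, where the other 6 had at most 20.7 FPKM. Its paralog DDX5 carried peaks in both lines.

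Many members carried several peaks in DLD-1. In that line 29 members had more peaks than in SW480, 4 had fewer and 8 had the same number. The DLD-1 list is also the larger over all protein-coding hosts, with 13336 peaks against 8924 in SW480. The share of all genes with more peaks in DLD-1 was not computed. The mean was 3.18 peaks per member with a peak, against 2.02 over all protein-coding hosts, and in SW480 it was 1.74 against 1.47. Chosen after the values were seen, a count of 5 or more peaks was reached by 13 of the 47 members in DLD-1 (27.7%, background 3.15%) and by DHX9 alone in SW480 (2.13%, background 0.284%). The 13 were DDX18, DDX21, DDX24, DDX27, DDX39B, DDX41, DDX42, DDX46, DHX9, DHX16, DHX30, DHX36 and DHX38. Of the 12 related helicases above the floor, 4 also had 5 or more peaks in DLD-1, namely EIF4A1, EIF4A2, SKIV2L2 and SNRNP200. Among genes with a peak and at least 10 FPKM, the shares with 5 or more in DLD-1 were 43.3% of 30 members and 7.67% of 4145 protein-coding genes. The gene models behind the FPKM of the 13 were 1.41 times as long in the median as the protein-coding median, and those of all 366 protein-coding genes with 5 or more were 1.38 times as long. The part of length in this count was not tested.

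**Figure D4:**
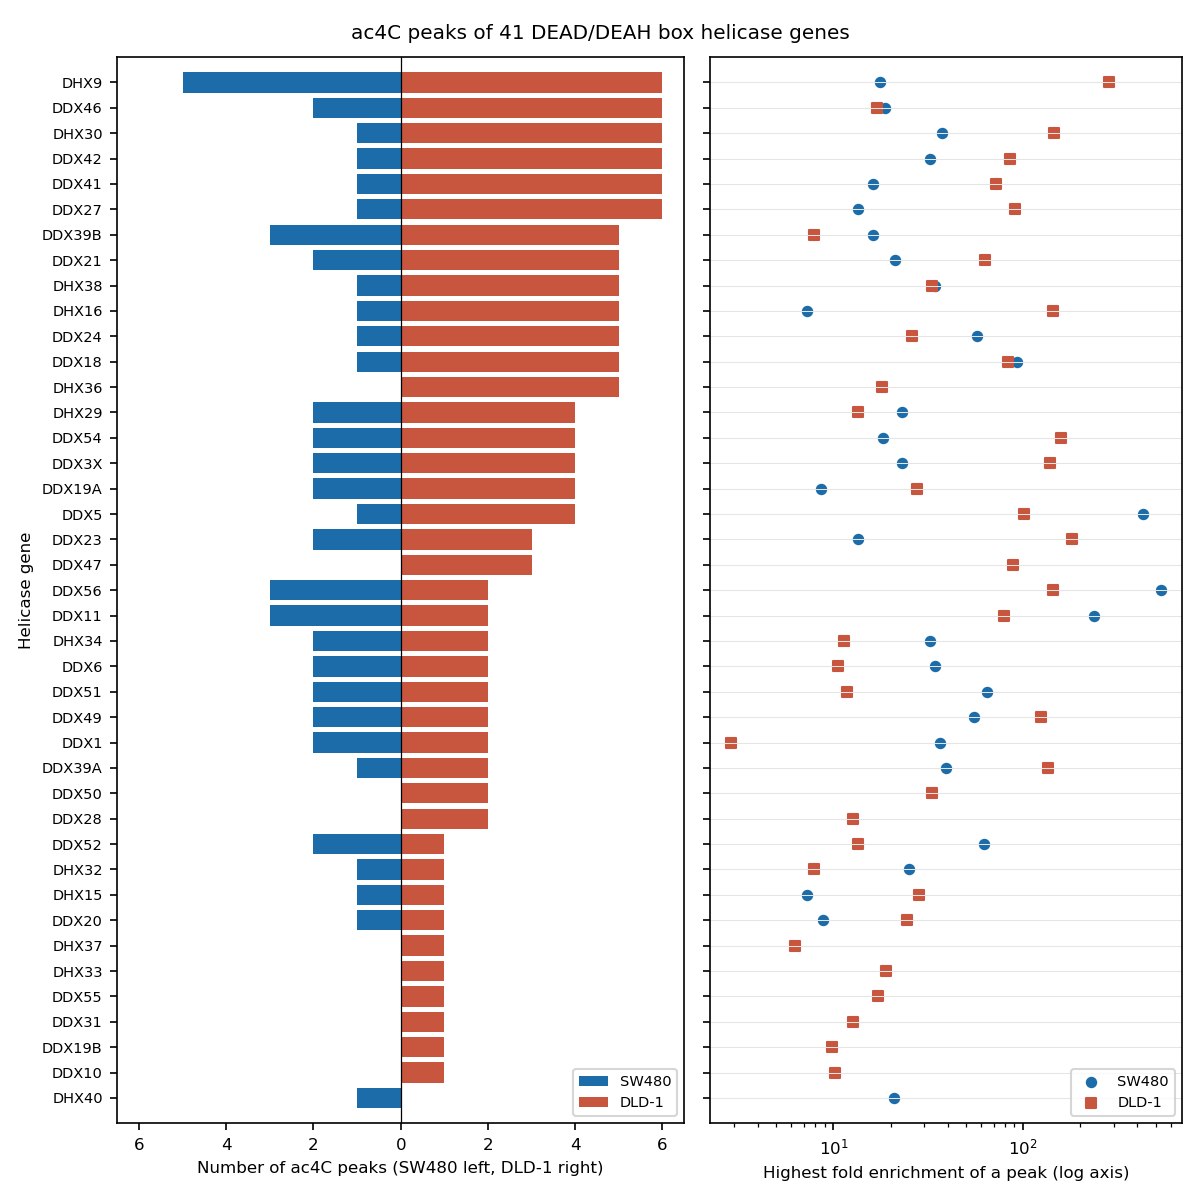
Left, number of ac4C peaks on the 41 helicase genes with a peak in either line (SW480 to the left, DLD-1 to the right of 0). Right, the highest fold enrichment of a peak of that gene in each line on a log axis. DHX9 has 5 and 6 peaks, and the highest fold is that of DDX56 in SW480 (531).

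Of the 54 SW480 peaks, 33 shared at least 1 base with a DLD-1 peak of the same gene, which is 61.1% of the SW480 and, as 29 of 127, 22.8% of the DLD-1 peaks. Such a pair was found on 22 members. The same shares over all protein-coding hosts were not computed, so the overlap cannot be called high or low. The highest peaks were on DDX56 and DDX5. DDX56, a nucleolar helicase, had a 3′ UTR peak of fold 531 in SW480 on chromosome 7 (44565806 to 44566163, GRCh38, minus strand) that overlapped a DLD-1 peak of fold 143 (44565776 to 44566312). DDX5 had a peak classed as exon of fold 431 in SW480 on chromosome 17 (64499646 to 64499946, minus strand), inside a DLD-1 peak of fold 101, and 3 further peaks in DLD-1 with folds of 4.90 to 51.1.

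DDX11, a DNA helicase of sister chromatid cohesion, had a 3′ UTR peak of fold 237 in SW480 on chromosome 12 (31104313 to 31104701, plus strand), which overlapped a DLD-1 peak of fold 79.4. DDX18 had a peak of fold 92.6 in SW480 on chromosome 2 (117831960 to 117832229), overlapping 1 of its 5 DLD-1 peaks (fold 27.1), and the highest DLD-1 peak (fold 83.4) lay further upstream with no SW480 partner. DDX49, of ribosome assembly, had overlapping peaks of fold 55.2 and 124 in SW480 and DLD-1, DDX39A of fold 39.3 and 136, and DDX42, of the U2 snRNP, of fold 32.3 and 85. In DDX24 an SW480 peak of fold 57.3 overlapped a DLD-1 peak of fold 3.03.

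A peak in both lines did not always mean the same place. DHX38 had an SW480 peak of fold 34.4 in the 3′ UTR on chromosome 16 (72112673 to 72112852) and 5 DLD-1 peaks in the coding sequence of fold 7.08 to 33.0, with no overlap. DHX30, a helicase of mitochondrial ribosome assembly, had an SW480 peak of fold 37.5 in the coding sequence and 6 DLD-1 peaks of fold 8.06 to 146, again with no overlap. DHX9 had 5 SW480 peaks of fold 3.64 to 17.7, each overlapping a DLD-1 peak, and its highest DLD-1 peak (fold 284) held 1882 bases in 9 blocks. DDX41 had 6 DLD-1 peaks of fold 4.89 to 72.4 and 1 in SW480 of fold 16.1. DDX46 had 6 and 2, and DDX3X had 4 and 2, all in the 3′ UTR, the highest of fold 138 in DLD-1.

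Peaks in the 5′ UTR were listed on DDX11 and DDX21 in SW480 and on DDX21 in DLD-1. The DDX21 peaks, of fold 17.7 and 27.5, overlapped and had no listed site. For each peak the lists also count sites of a 12-base pattern, CNNCNNCNNCNN read on the transcribed strand. The site in the DDX11 peak (fold 12.5) is shown in RefSeq sequence (GRCh38.p14) as an example of what is counted, with the listed site in capitals.
DDX11, chr12:31074233-31074262, plus strand: gggcattaaCAGCAGCCGCGTgtctgggtc

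The site in DDX11 lies at 31074242 to 31074253, just upstream of the start site that the promoter table gives (31074265) and inside the gene as RefSeq draws it. Over all peaks of either line, 321 listed sites fell in RefSeq start-site windows and 312 of them read the pattern. So short a pattern is common, and 74.9% of the 35116 RefSeq start-site windows hold it on the transcribed strand (90.3% on either strand). At least 1 site was listed in 22 of 54 member peaks in SW480 (40.7%, 95% Wilson interval 28.7 to 54.0) and in 72 of 127 in DLD-1 (56.7%, 48.0 to 65.0). Over all protein-coding hosts these shares were 56.2% and 54.8%. The highest peaks did not follow the number of sites. The DDX5 peak of fold 431 and the DDX56 peak of fold 531 had no listed site in SW480, and the DDX11 peak of fold 237 had 8.

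In SW480 55.6% of member peaks were in the 3′ UTR (42.4 to 68.0) against 56.3% over all protein-coding hosts. In DLD-1 24.4% of member peaks were in the 3′ UTR (17.8 to 32.6) against 43.2%, and 30.7% were classed as exon (23.4 to 39.2) against 15%. The shares in coding sequence were 44.1% (35.8 to 52.8) and 40%. Peaks of 1 gene often share a class, as those of DDX18 do (all exon), although others such as DDX21 hold several. Peaks are thus not independent, and these intervals over peaks are too narrow. Counted by gene, 18 of 40 members with a DLD-1 peak had one in the 3′ UTR (45.0%, against 58.7% of protein-coding hosts) and 14 of 40 had an exon peak (35.0%, against 17.5%). In SW480 the shares by gene were 71.0% against 64.7% in the 3′ UTR and 29.0% against 17.1% for exon. What sets the class exon apart was not stated.

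**Figure D5:**
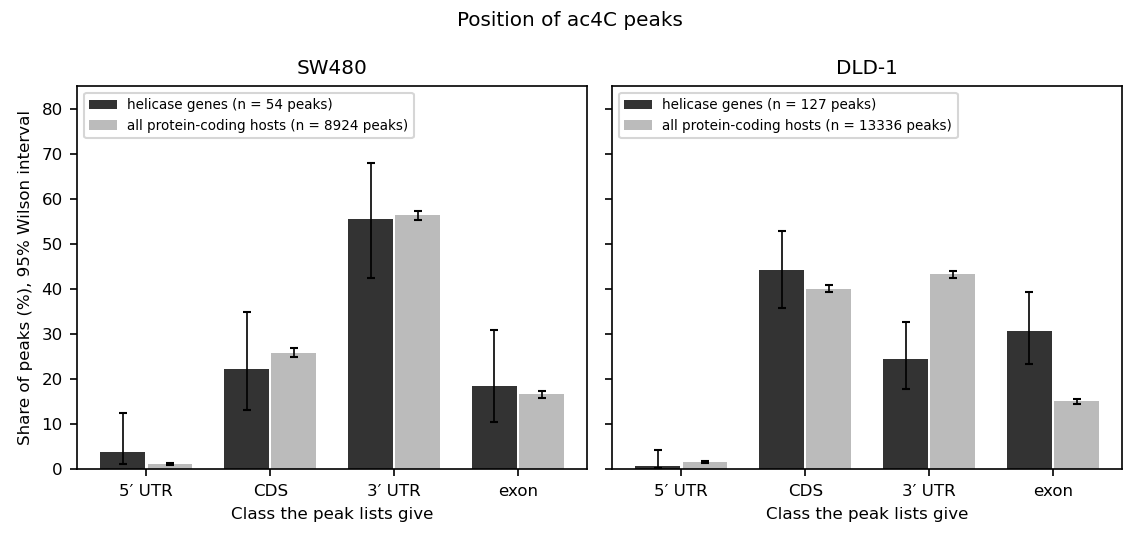
Share of ac4C peaks in each position class, in percent, for the helicase genes (dark) and for all protein-coding hosts (light), with 95% Wilson intervals over peaks. In DLD-1 the 3′ UTR share of the helicase genes is 24.4% against 43.2%, and in SW480 it is 55.6% against 56.3%.

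Some peaks and levels cannot be given to 1 gene. At the same position another host gene was listed for 5 of the 54 SW480 peaks and 10 of the 127 DLD-1 peaks. DDX39B shares some of its peaks with the entry ATP6V1G2-DDX39B, which was listed at 0 in all 4 libraries. DDX47, a helicase of rRNA processing, had 0.515 to 1.37 FPKM, below the floor, yet 3 peaks in DLD-1 of fold 14.2 to 88.1 on chromosome 12, and APOLD1, a gene on the same strand, was listed at the position of each. APOLD1 had 1.202 to 3.42 FPKM. How the authors' counting treated reads that fit more than 1 gene was not stated.

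The members with peaks in both lines and those with none overlapped in RIP/Input. The median mean RIP/Input was -0.11 over the 30 members with peaks in both lines (range -1.66 to 0.86), 0.02 over the 9 with peaks in DLD-1 only, and -0.16 over the 7 with none (range -0.65 to 0.39). DHX38 and DDX19A, lowest in RIP, carried 5 and 4 DLD-1 peaks, and DHX9, among the highest, carried 6.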

How the data were processed

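SW480 and DLD-1 cells, given as wild type and untreated, had 1 Input, 1 NAT10 RIP and 1 acRIP library each, grouped by title. The authors deposited FPKM values per gene for RIP and Input, and a second Input pair whose unit they do not name, read here as FPKM. They also deposited peak lists per line and pooled, with a fold enrichment ratio, a p-value, a score (log10 of the false discovery rate) and a count of motif sites per peak. The authors' own RIP/Input ratio columns were not used. The submitters' processing notes name cutadapt 2.5, HISAT2 2.1.0 and GRCh38. The counting tool, its strand setting and the peak caller are not given in the sources used here. An IgG control is mentioned in the study, whereas the table names Input.

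Here log2(FPKM + 1) differences were taken, with a call at 2-fold and a floor of 1 FPKM in the mean. The added constant shrinks the fold of weakly expressed genes. Of 23515 genes with a value in 2 or more columns, 23514 could be solved to whole reads, within 0.01 of a whole number. They are the smallest that give the FPKM values, so counting errors are upper limits for the spread of counting alone. The spread that copies made by PCR add is not in them. The method was tested on simulated reads, where all 200 genes changed 4-fold were called, as were 32 unchanged ones, among 14732 genes. These reads held counting spread alone, with no difference between the lines, and the changed genes were well above the floor. The simulation thus checks the arithmetic, and not the pairing of labels or other spread. Peaks were joined to genes by Ensembl identifier, and all 53 members matched a RefSeq gene. Peak starts are counted from 1. The members, the role lists and the named genes (the highest and lowest by Input, by RIP/Input and by line, those with the highest peaks in both lines, and 14 by role) were chosen with earlier results of these data known. Alternatives were other pseudocounts, floors, centring and Inputs. Python 3.11.15, pandas 2.3.3 and scipy 1.17.1 were used.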

Additional observations from a re-analysis of the deposited data

Results flagged for a closer look

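Under the labels as given, RIP/Input had opposite signs in the 2 lines for 14 of the named helicase genes, each ratio lying more than 2 counting errors from 0. The difference, SW480 minus DLD-1 on the log2 scale, was 1.19 for DDX18, 1.28 for DDX24, 0.73 for DDX3X, 0.92 for DDX56 and 1.68 for DHX33. It was -1.36 for DDX11, -0.89 for DDX21, -1.82 for DDX39B, -0.54 for DDX42, -1.42 for DDX5, -1.95 for DDX58, -0.62 for DHX15, -1.89 for DHX29 and -0.42 for DHX30. With 1 library per group the difference between the lines was not tested. Over the Input of the other label, all 14 differences were smaller in size, from -0.64 (DDX39B) to 0.49 (DDX5). Of the 14 genes, 4 still had opposite signs there. The smaller size follows by arithmetic wherever Input and RIP differences have opposite signs, as in 79.6% of the protein-coding genes. The smaller size thus adds nothing to those opposite signs, and how the libraries pair was not tested. RIP/Input signs under the labels as given were opposite in 55.3% of the 47 members and in 51.4% of the protein-coding genes. Over the other Input these shares were 23.4% and 20.7%.

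DDX17 had a peak in the pooled list only, with a fold of 7.25 on chromosome 22 (38491126 to 38491245, minus strand, class exon), and none in the list of either line.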

How the results depend on the processing

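No paired analysis was possible because the labels give no replicate numbers and each group holds 1 library. A fit of RIP against Input with the line as a block was not run, and without either line the ratio of the other, given by label, remains. Of 96 recomputed values, 74 kept their direction and were within 1.5 times the reported count or inside the binomial interval of the reported median over members (-0.22 to 0.02 for the mean of both lines). Another 20 moved outside these bounds and 2 changed sign. Those 2 were the DLD-1 median with the Inputs of the acRIP table (from -0.10) and the SW480 median at 10 FPKM (from -0.17). Among the 74, the median of the mean RIP/Input was -0.22 when centred and -0.04 with the Inputs of the acRIP table. The SW480 median was -0.03 with those Inputs and -0.04 over the other Input. Members with a peak fell from 31 to 21 and from 39 to 28 with a p-value at or under the list median, and 22 had an overlapping pair. With a pseudocount of 5, 0 members were at least 2-fold above Input in the mean and 1 below, 1 was below under the SW480 label, 2 were above and 1 below under the DLD-1 label, and 0 were higher in the Input labelled SW480. With a pseudocount of 0.1, 2 were higher in that Input. Centred on the protein-coding median, the SW480 median was -0.42, 8 members were below under that label, and 2 were higher in the Input labelled SW480. With the scaled Inputs of the acRIP table the DLD-1 median was 0.0254, 7 members were above under the DLD-1 label, and 3 were higher in the Input labelled SW480. Over the other Input, 2 were above and 2 below under the SW480 label, and 0 above and 2 below under the DLD-1 label. At a mean of at least 10 FPKM, a floor chosen after seeing the data, the SW480 median was 0.00906, 1 member was below in the mean, 2 were above under the DLD-1 label, and 0 were higher in the Input labelled SW480. At that p-value 18 members had a peak in both lines. The cause of these shifts was not tested, apart from the smaller number of genes, the smaller number of peaks and the added constant that the settings bring. Shares over all protein-coding genes are given above only for the RIP/Input counts with the Inputs of the acRIP table and over the other Input. The remaining recomputed counts have no such share beside them. They cannot show whether the members still differ from the background. Counting errors do not include the spread between cultures, which 1 library per group cannot show.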
